A study of Rattus norvegicus with 32 samples.

Results

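The D cyclins, the kinases they activate and the inhibitors of those kinases were followed in the left ventricle of rats with sepsis. The set held 10 genes, Ccnd1, Ccnd2, Ccnd3, Cdk4, Cdk6, Cdkn1a, Cdkn1b, Cdkn1c, Cdkn2b and Cdkn2c, of 34912 gene names on the array. Members were found by symbol, as every probe that was not a control and carried the name of a member in the files of males or of females. This gave 19 of 45598 probes, printed on 39 of 58717 spots. Wistar rats of both sexes, 9 to 12 weeks old, had sham surgery or cecal ligation and puncture (CLP), an operation that lets gut bacteria leak into the abdomen. The sham group and the CLP group received saline, and the CLP plus landiolol group received landiolol, a β1-selective beta-blocker with a brief action, at 0.1 mg/kg/min from 1 h after CLP. No group received antibiotics, all animals had buprenorphine against pain, and no sham group with landiolol was studied here. Hearts were frozen 20 h after surgery, after imaging and after perfusion outside the body, and each array held the RNA of 1 rat. There were 5 sham, 5 CLP and 6 CLP plus landiolol arrays in each sex.

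D cyclins are made when a cell receives growth signals. They bind CDK4 or CDK6, and the complex phosphorylates the retinoblastoma protein RB, which then releases E2F factors and lets the cell pass from G1 into S phase. Inhibitors of the INK4 family (p15 from Cdkn2b, p18 from Cdkn2c) bind CDK4 and CDK6 and keep the cyclin away. Inhibitors of the Cip/Kip family (p21 from Cdkn1a, p27 from Cdkn1b, p57 from Cdkn1c) bind cyclin and kinase together. Most cardiomyocytes of an adult heart have left the cell cycle, so much of the cycling in a ventricle takes place in its other cells.

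Each probe was 60 bases long. The sequences of the probes for Ccnd1 and Ccnd2, the cyclins with the largest differences, are shown with that of Cdk4, a kinase that both of them bind, to name the stretch of transcript that was read. Each of the 3 has a reading frame without a stop codon. They are written 5′ to 3′ in lower case, with no part singled out.
Ccnd1, probe 2: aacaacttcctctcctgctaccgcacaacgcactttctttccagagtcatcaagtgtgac
Ccnd2: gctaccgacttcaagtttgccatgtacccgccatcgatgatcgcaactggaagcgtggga
Cdk4: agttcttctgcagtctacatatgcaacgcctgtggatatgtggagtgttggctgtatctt
In build rn4, used by the files, the Ccnd1 sequence lies on the minus strand at chr1:205361630-205361689. The Ccnd2 sequence lies on the minus strand between chr4:163535032 and 163541856, a stretch of 6825 bases for a probe of 60, so that it joins exons. The Cdk4 sequence lies on the plus strand at chr7:67017293-67017352. Ccnd1 had a further probe at chr1:205357553-205357612, printed on 10 spots, in which all reading frames held a stop codon. It had the higher mean signal, was used as the reported probe of Ccnd1 and lay 4077 bases from the probe shown. Cdkn1a likewise had a reported probe on 10 spots at chr20:7386596-7386655 and another probe 1090 bases away. The probes of different members shared no run longer than 10 bases on either strand. Of the 19 probes, 18 carried an accession that RefSeq (assembly GRCr8) gives to the gene of the same symbol.

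On each array 34920 to 43155 of 58717 spots were well above background, and the 75th percentile of the processed intensity before normalisation ranged from 768 to 2836. Of the 7 cardiomyocyte markers, all 7 were above background on every array. Levels below are log2 intensities, quantile-normalised within a sex. They can be compared between groups of the same sex, and not between probes or between sexes, since each sex was hybridised on its own 2 slides. The file headers give the first female slide a different protocol name from all other slides. Slide and protocol can thus not be told apart in females. A member was tested when 80% or more of the arrays of some group had its probe above background, and it was called at a limma adjusted p below 0.01 for comparisons with sham and below 0.05 for landiolol against CLP. Of the 10 members, 9 were tested in both sexes, each with its reported probe above background on all 32 arrays. Cdkn2b was not tested. Its 4 probes were above background on 6, 5, 0 and 0 of 16 male arrays and on 4, 1, 0 and 1 of 16 female arrays, and the fourth of them carries the name Cdkn2b only in the female files.

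The first question was which parts of this module differed between septic and sham hearts. In males, 2 of 9 members were lower after CLP, Ccnd1 and Ccnd2, and none was higher. In females, 1 of 9 was lower, Ccnd1, and none was higher. Among all probes tested, 3.94% were called lower in males and 1.82% in females. The share of all probes called higher was not counted, so counts of genes that rose have no such share beside them. The median log2 difference of the 9 members was -0.10 in males, beside 0.0091 over all 25866 probes tested, and 0.03 in females, beside -0.01 over 25395. The CLP and sham arrays did not overlap for 3 of 9 members in males, Ccnd1, Ccnd2 and Cdkn1b, where 12.3% of all probes did not. They did not overlap for 2 of 9 in females, Ccnd1 and Ccnd2, where 8.32% of all probes did not. RNA of a whole ventricle was measured, so fewer cells of a type cannot be told apart from less RNA per cell.

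**Figure D1:**
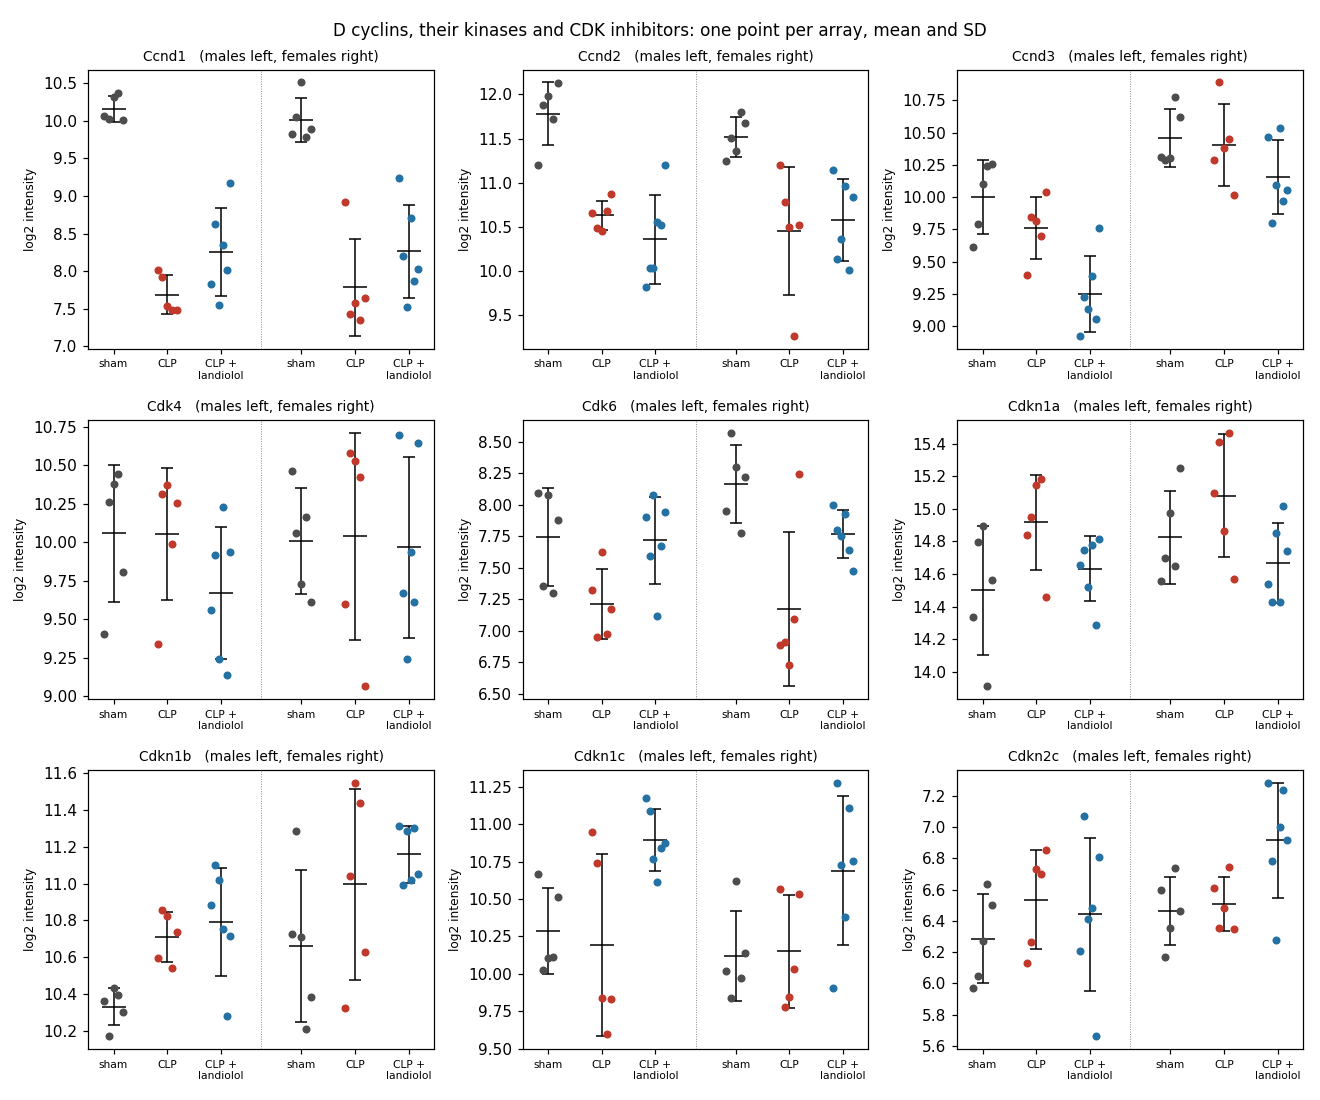
Log2 intensity of the reported probe of 9 members on each of 32 arrays (points), with the mean and SD of each group (bars), males left and females right of the dotted line in each panel. The vertical axes differ between panels and do not start at 0. Ccnd1 and Ccnd2 of the CLP groups lie below all sham arrays of the same sex, while the Cdk4 groups overlap throughout.

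Ccnd1, which encodes cyclin D1, had the largest difference of the members. In males its sham arrays read 10.06, 10.02, 10.32, 10.37 and 10.0045, and its CLP arrays 8.01, 7.92, 7.54, 7.48 and 7.48. Every CLP array lay below every sham array. The mean was 10.15 ± 0.17 in sham and 7.69 ± 0.26 in CLP (SD, n = 5 each). It fell by 2.47 on the log2 scale (SE 0.24, limma adjusted p = 1.37e-05), or 5.53-fold. The sequence shown above, read by the second Ccnd1 probe, gave -2.28 (SE 0.22, adjusted p = 1.41e-05). On the 2 male slides taken separately, the log2 difference of the reported probe was -2.22 and -2.75.

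In females, Ccnd1 read 9.82, 10.05, 10.51, 9.79 and 9.90 on sham arrays and 8.92, 7.43, 7.57, 7.35 and 7.65 on CLP arrays. The CLP arrays again lay below all sham arrays, and the first of them stood 1 log2 unit or more above the other CLP arrays. The mean was 10.01 ± 0.30 in sham and 7.78 ± 0.65 in CLP (SD, n = 5 each). It fell by 2.23 on the log2 scale (SE 0.33, limma adjusted p = 0.000587), or 4.68-fold. The second probe gave -1.56 (SE 0.30, adjusted p = 0.00424). On the 2 female slides the difference was -2.69 and -1.87, and within the first row of array positions, which held all sham arrays and 3 of the CLP arrays, it was -2.04.

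In males, 4 of 6 fibroblast markers were called lower after CLP, Col1a1, Col1a2, Col3a1 and Lum, with a median log2 difference of -1.61 over the list. In females none of the 6 was called, and the median was -1.07. Dcn, of the same list, went the other way without passing, at 0.87 in males and 0.77 in females (limma adjusted p = 0.0467 and 0.0752). Pdgfra gave -0.40 and -0.20 (adjusted p = 0.155 and 0.299). The intensities of the 6 were also added up on each array before log2 was taken, so that the brightest markers weigh most. This log2 sum ranged from 16.25 over a median of 16.53 to 16.93 in male sham arrays. In male CLP arrays it ranged from 15.53 over 16.27 to 16.46. In females it ranged from 15.62 over a median of 15.75 to 16.18 in sham and from 15.34 over 16.04 to 16.33 in CLP arrays. Its median was thus lower after CLP in males and higher in females. The single female log2 differences were -1.61 for Col1a1, -0.95 for Col1a2, -1.20 for Col3a1 and -1.72 for Lum, beside 0.77 for Dcn. No marker of the 6 was below background throughout a group. Of the cardiomyocyte markers, 0 of 7 were called in either sex at an adjusted p below 0.01. Of the endothelial markers, 1 of 6 was called lower in each sex (Emcn), and of the 5 smooth muscle and pericyte markers none in males and 1 in females (Rgs5). Of the macrophage and monocyte markers, 2 of 6 were called higher in each sex, Cd68 and Adgre1. Only 2 of 5 neutrophil markers were tested, S100a8 and S100a9, and both were called higher in males and S100a8 in females. Of the 7 lymphocyte markers, 4 were tested in males and 3 in females, and none was called. The part of these cell types in the differences of the members was not tested.

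Ccnd2, which encodes cyclin D2, was the other member lower after CLP in males. Its male sham arrays read 11.20, 11.88, 11.98, 11.73 and 12.12, and its CLP arrays 10.65, 10.49, 10.45, 10.68 and 10.87. The groups did not overlap, and the mean fell by 1.15 on the log2 scale (SE 0.23, limma adjusted p = 0.00325), or 2.22-fold. The call was lost without sham replicate 5 (-1.06) and without CLP replicate 3 (-1.11). The differences on the 2 male slides were -1.01 and -1.16.

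In females, Ccnd2 read 11.24, 11.51, 11.36, 11.80 and 11.67 on sham arrays and 11.20, 10.79, 10.49, 9.27 and 10.53 on CLP arrays. The groups did not overlap, but the CLP arrays were spread over nearly 2 log2 units and the highest of them lay just below the lowest sham array. The log2 difference was -1.06 (SE 0.30, 95% interval -1.70 to -0.42) and did not pass (limma adjusted p = 0.0383). On the first row of array positions it was -0.69.

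Ccnd3, which encodes cyclin D3, did not pass after CLP in either sex. It read from 9.61 to 10.26 on male sham and from 9.39 to 10.04 on male CLP arrays, and the log2 difference was -0.24 (95% interval -0.61 to 0.13, limma adjusted p = 0.408). In females it was -0.05 (95% interval -0.44 to 0.33, adjusted p = 0.909). The intervals of Ccnd3 lay above those of Ccnd1 in both sexes. Its probe has no position in the files.

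The catalytic partners Cdk4 and Cdk6 had different values. Cdk4 read from 9.40 to 10.44 in male sham and from 9.34 to 10.37 in male CLP arrays, with a log2 difference of -0.0046 (95% interval -0.56 to 0.55, limma adjusted p = 0.994). In females it read from 9.61 to 10.47 in sham and from 9.06 to 10.58 in CLP arrays, with a difference of 0.03 (95% interval -0.67 to 0.73, adjusted p = 0.973). The intervals span more than 1 log2 unit in each sex, so that a moderate change in either direction was not detectable here.

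Cdk6 was read by 3 probes within 3382 bases on chromosome 4, and its call depended on the probe. The reported probe read 8.10, 7.36, 8.08, 7.30 and 7.88 on male sham and 7.32, 6.96, 7.63, 6.98 and 7.17 on male CLP arrays, and the groups overlapped (log2 difference -0.53, SE 0.21, limma adjusted p = 0.0991). The second probe, at chr4:27359476-27359535, was called lower in males, at -1.03 (SE 0.25, adjusted p = 0.00942), and in females, at -1.37 (SE 0.21, adjusted p = 0.000758). It read 7.35, 7.35, 7.90, 7.18 and 7.42 on male sham and 6.72, 6.74, 5.33, 6.57 and 6.67 on male CLP arrays, with no overlap. The third probe was not called, at -0.39 in males and -0.72 in females (adjusted p = 0.517 and 0.136).

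In females, the reported Cdk6 probe read 7.95, 8.57, 8.30, 7.78 and 8.22 on sham arrays and 6.89, 6.91, 6.73, 7.10 and 8.24 on CLP arrays. The first 4 CLP arrays lay below all sham arrays and the last lay among them. The log2 difference was -0.99 (SE 0.24, limma adjusted p = 0.0177), which did not pass at 0.01. Without that CLP array, replicate 5, it was -1.26 and passed. On the 2 female slides it was -1.15 and -0.89.

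None of the 4 Cip/Kip and INK4 inhibitors tested was called after CLP in either sex. Cdkn1a, which encodes p21 and is a known target of p53, had a mean of 14.50 ± 0.39 in male sham and 14.92 ± 0.29 in male CLP (SD, n = 5 each). Its sham arrays read 14.33, 14.80, 14.89, 13.91 and 14.56 and its CLP arrays 14.84, 14.95, 15.15, 15.19 and 14.46. The groups overlapped, with 2 of 5 CLP arrays inside the sham range. The log2 difference was 0.42 (95% interval 0.02 to 0.81, limma adjusted p = 0.149).

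The other Cdkn1a probe, at chr20:7385506-7385565, read 7.38, 7.74, 7.93, 6.97 and 8.11 on male sham and 7.98, 8.51, 8.78, 8.76 and 8.19 on male CLP arrays. Of the CLP arrays, 4 of 5 lay above all sham arrays. Its difference of 0.82 (SE 0.23, limma adjusted p = 0.0264) did not pass at 0.01 either. In females the 2 probes gave 0.26 and 0.23 (adjusted p = 0.477 and 0.665).

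Cdkn1b, which encodes p27, read 10.36, 10.17, 10.43, 10.39 and 10.30 on male sham and 10.60, 10.85, 10.82, 10.54 and 10.73 on male CLP arrays. The male groups did not overlap, but the distance between them was small. The log2 difference was 0.38 (95% interval 0.09 to 0.67, limma adjusted p = 0.076) and did not pass. The second Cdkn1b probe gave 0.25 (adjusted p = 0.409) with overlapping groups. In females the reported probe ranged from 10.21 to 11.28 in sham and from 10.33 to 11.55 in CLP arrays (difference 0.33, adjusted p = 0.439).

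Cdkn1c, which encodes p57 and is an imprinted gene, differed by -0.10 in males and 0.03 in females (95% intervals -0.60 to 0.41 and -0.50 to 0.56, limma adjusted p = 0.856 and 0.966). Its male CLP arrays were spread, at 10.94, 10.74, 9.84, 9.598 and 9.83, while the male sham arrays lay between 10.03 and 10.67. Cdkn2c, which encodes p18 and was the dimmest probe among the reported ones, differed by 0.25 and 0.04 (95% intervals -0.25 to 0.75 and -0.33 to 0.42, adjusted p = 0.544 and 0.925).

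**Figure D2:**
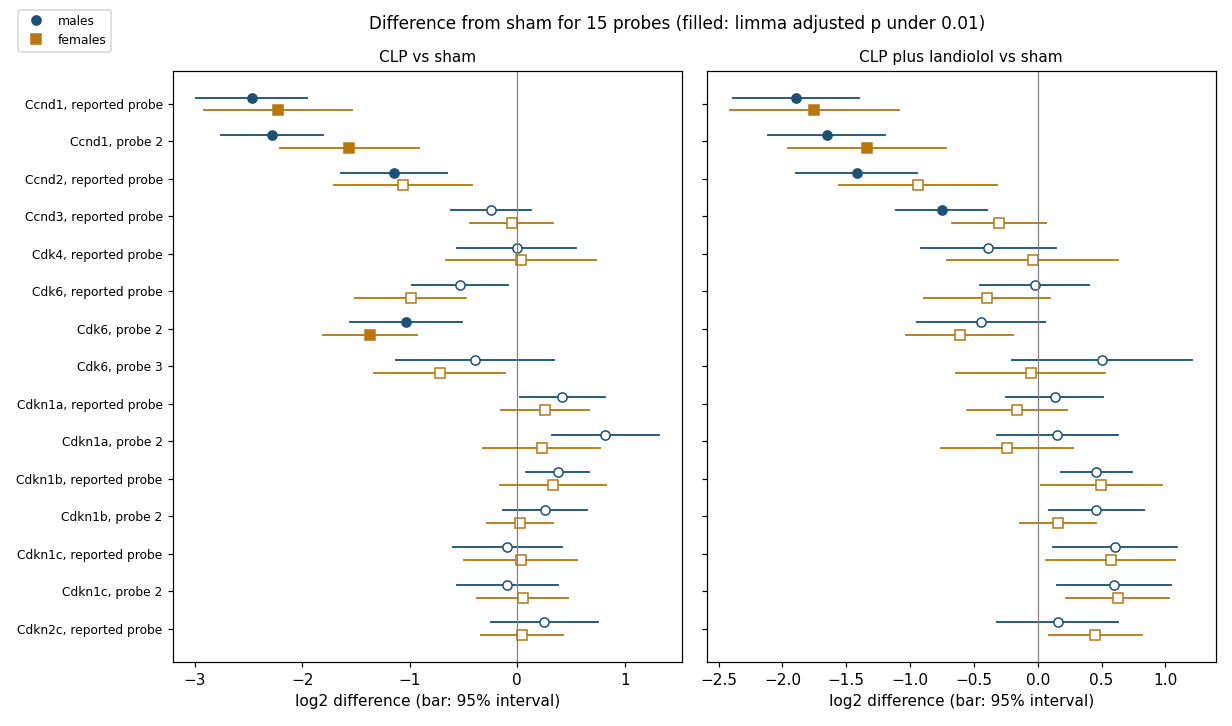
Log2 difference from sham (horizontal axis) for the 15 member probes tested, after CLP (left) and after CLP plus landiolol (right), with 95% intervals, for males (circles) and females (squares). Filled symbols passed at a limma adjusted p below 0.01. The 4 filled probes on the left in males and 3 in females belong to Ccnd1, Ccnd2 and Cdk6, all left of 0, and the inhibitor probes carry no filled symbol.

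The second question was how landiolol changed the module in septic rats. No member was called in CLP plus landiolol against CLP by limma at an adjusted p below 0.05, in males or in females. Over all probes, 1.56% were called in males and 0.0945% in females. At an unadjusted p below 0.05, 4 of 9 members passed in males (Ccnd1, Ccnd3, Cdk6 and Cdkn1c) and 4 of 9 in females (Cdk6, Cdkn1a, Cdkn1c and Cdkn2c), where 14.8% of all male probes and 9.34% of all female probes did. These comparisons use the same CLP arrays as the comparisons of CLP with sham, so an unusual CLP array enters both.

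Ccnd1 in the male CLP plus landiolol group had a lowest value of 7.55, a median of 8.19 and a highest value of 9.17. Of these 6 arrays, 4 lay above the highest CLP array, at 8.01, and none reached the lowest sham array at 10.0045. The log2 difference from CLP was 0.57 (95% interval 0.08 to 1.07, limma adjusted p = 0.259), and it was 0.18 on the first and 1.04 on the second male slide. In females the landiolol arrays ranged from 7.52 over a median of 8.12 to 9.23, and the difference was 0.48 (95% interval -0.18 to 1.14, adjusted p = 0.685). This value was 0.76 without CLP replicate 1 and also with a term for the row of the slide. It was 0.28 without CLP plus landiolol replicate 1, and it was not called in any of these fits. The second Ccnd1 probe gave 0.63 in males and 0.22 in females (limma adjusted p = 0.176 and 0.88).

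Cdkn1c had the largest difference among the reported probes in males. Its landiolol arrays read from 10.62 over a median of 10.86 to 11.18, above 3 of 5 CLP arrays and overlapping the other 2. The log2 difference was 0.70 (95% interval 0.22 to 1.19, limma adjusted p = 0.152), and the second probe gave 0.69 (adjusted p = 0.129). Without male CLP replicate 1, the highest CLP array, the difference was 0.89 and passed. In females the reported probe read from 9.90 over 10.74 to 11.28 under landiolol, with a difference of 0.54 (95% interval 0.04 to 1.05, adjusted p = 0.497), and the second probe gave 0.58 (adjusted p = 0.308).

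For Cdk6, all 3 probes had positive values in both sexes and none passed. In males the log2 differences were 0.51, 0.59 and 0.90 (limma adjusted p = 0.245, 0.25 and 0.213). In females they were 0.59, 0.76 and 0.67 (adjusted p = 0.421, 0.174 and 0.453). Without female CLP replicate 5, the array that had stood among the sham arrays, the reported probe gave 0.86 and passed. Within the second row of the female slides, which held that array and 1 other CLP array beside all landiolol arrays, it was 0.10.

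Ccnd2 gave a log2 difference from CLP of -0.27 in males (95% interval -0.74 to 0.20, limma adjusted p = 0.589) and 0.12 in females (95% interval -0.49 to 0.74, adjusted p = 0.946). Ccnd3 gave -0.51 in males (95% interval -0.86 to -0.16, adjusted p = 0.156) and -0.25 in females (adjusted p = 0.709). Cdk4 gave -0.38 in males and -0.07 in females (adjusted p = 0.496 and 0.973).

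For Cdkn1a, the reported probe gave a log2 difference of -0.28 in males and -0.42 in females (limma adjusted p = 0.482 and 0.5). The other probe gave -0.66 and -0.47 (adjusted p = 0.171 and 0.593). The reported probe read from 14.29 over a median of 14.70 to 14.81 in males under landiolol, which overlapped both the sham and the CLP arrays. Cdkn1b gave 0.08 and 0.16 (adjusted p = 0.791 and 0.887). Cdkn2c gave -0.09 in males and 0.41 in females (adjusted p = 0.861 and 0.467). Its female landiolol arrays read from 6.28 over a median of 6.96 to 7.28, and 5 of 6 lay above the highest CLP array at 6.75.

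**Figure D3:**
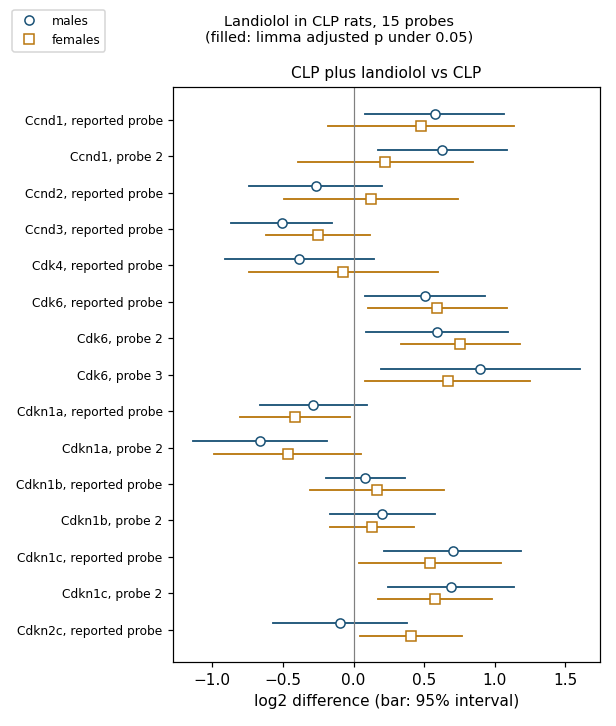
Log2 difference between CLP plus landiolol and CLP (horizontal axis) for the 15 member probes tested, with 95% intervals, for males (circles) and females (squares). No symbol is filled, since no probe passed at a limma adjusted p below 0.05, and the widest intervals span more than 1 log2 unit.

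The third question was what remained different from sham in rats that received landiolol. In males, 3 of 9 members were lower, Ccnd1, Ccnd2 and Ccnd3, where 1.76% of all probes were called lower. In females, 1 of 9 was lower, Ccnd1, where 2.24% of all probes were. No member was called higher. These comparisons share the sham arrays with those of CLP against sham.

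Against sham, Ccnd1 gave a log2 difference of -1.89 in males (SE 0.23, limma adjusted p = 0.000136), or 3.72-fold lower, and of -1.75 in females (SE 0.31, adjusted p = 0.00185), or 3.36-fold lower. No landiolol array overlapped a sham array in either sex. The second probe was called as well, at -1.65 in males and -1.34 in females (adjusted p = 0.000214 and 0.00695). In females, all sham arrays lay in the first row of the slides and all landiolol arrays in the second. With row as a term in the fit the difference was -1.27 and did not pass. Row and group cannot be told apart in this comparison except through the CLP arrays.

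Ccnd2 gave -1.42 against sham in males (SE 0.22, limma adjusted p = 0.000843), or 2.68-fold lower. Its male landiolol arrays ranged from 9.82 over a median of 10.28 to 11.21, and only the highest reached the sham range. In females the difference was -0.94 (adjusted p = 0.0449), with no overlap between groups. With row as a term it was -0.0063.

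Ccnd3 read from 8.92 over a median of 9.18 to 9.76 on male landiolol arrays, against 9.61 to 10.26 on sham arrays, and 1 landiolol array lay in the sham range. The log2 difference was -0.75 (SE 0.17), close to the threshold (limma adjusted p = 0.00937). The call was lost when any of 13 of the 16 male arrays was left out, with values between -0.80 and -0.69. It was also lost with 75th percentile scaling (-0.76), with no filter on dim probes (-0.75) and with only the compared groups fitted (-0.75). In females it was -0.30 (adjusted p = 0.288).

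No inhibitor passed in the landiolol groups against sham. Cdkn1b gave 0.46 in males and 0.50 in females (limma adjusted p = 0.0378 and 0.165), and in males it passed with array weights (0.57), without CLP plus landiolol replicate 5 (0.56) and at the other FDR level of 5%. Cdkn1c gave 0.61 and 0.57 (adjusted p = 0.109 and 0.134). Its second probe gave 0.60 in males, with no overlap between groups, and 0.63 in females (limma adjusted p = 0.0891 and 0.0414). The female value was thus below 5% and not below 1%. Cdkn2c gave 0.16 and 0.45 (adjusted p = 0.715 and 0.098). Cdkn1a gave 0.13 in males and -0.16 in females (adjusted p = 0.691 and 0.641). Cdk4 gave -0.39 and -0.04, and the reported probe of Cdk6 -0.03 and -0.40, none called.

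The effects in males and females were compared as an interaction over the 32 arrays normalised together. Each sex had its own slides, and an effect of the slides cancels here only if it adds equally to all groups of a sex. No member differed between the sexes in the effect of CLP or of landiolol in septic rats at an adjusted p below 0.05, and neither did any of the 26492 probes tested. At an unadjusted p below 0.05, limma gave 0 of 9 members in both comparisons, beside 3.76% and 4.93% of all probes. For the reported probes, the male minus female difference in the effect of CLP was -0.19 for Ccnd1 (95% interval -1.05 to 0.66) and -0.06 for Ccnd2 (95% interval -0.87 to 0.74). The call of Ccnd2 in males and not in females was thus not shown to be a difference between the sexes. In the effect of CLP, the second Ccnd1 probe gave -0.69 (95% interval -1.49 to 0.10) and the other Cdkn1a probe 0.58 (95% interval -0.14 to 1.31). Among the reported probes, the widest gaps under landiolol were -0.50 for Cdkn2c (95% interval -1.08 to 0.08) and -0.39 for Ccnd2 (95% interval -1.16 to 0.38). The second Ccnd1 probe gave 0.40 under landiolol (95% interval -0.36 to 1.16).

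Downstream of the D cyclins, RB, its relatives and the E2F factors showed no call after CLP, with 0 of 12 genes tested in each sex (median log2 difference 0.07 in males and 0.09 in females). Of the later cyclins, kinases and phosphatases, which carry a cell through S phase and mitosis, 0 of 13 were called in males and 0 of 12 in females (medians 0.05 and -0.04). Of the proliferation markers, 1 of 13 rose and 1 fell in males, and 1 of 13 rose in females. Mcm4, a subunit of the replicative helicase, rose by 0.74 in males and 0.91 in females (limma adjusted p = 0.00179 and 0.00338), while Mcm5, another subunit of the same helicase, fell by 0.74 in males (adjusted p = 0.00254) and gave -0.67 in females (adjusted p = 0.0294). The widely used marker Mki67 gave -0.03 and -0.42 (adjusted p = 0.955 and 0.341). The medians over all probes were 0.0091 and -0.01.

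Of p53 and its targets other than Cdkn1a, 0 of 15 were called after CLP in males or females. The largest value in the list was that of Tp53inp1, a p53-inducible nuclear protein, at 1.09 in males and 0.98 in females (limma adjusted p = 0.0468 and 0.0442). Of the transcription factors known to act upstream of D cyclins or the inhibitors, 3 of 20 rose and 1 fell in males, and 1 of 20 rose in females. The median log2 difference of the 20 was 0.24 in males and 0.21 in females, beside 0.0091 and -0.01 over all probes. Stat3, a transcription factor activated by interleukin-6 family cytokines, rose by 1.59 in males and 1.06 in females (adjusted p = 3.11e-05 and 0.00157). Of the genes in the 6 pathway lists it was the sole one called in CLP plus landiolol against CLP, at -0.82 in males (adjusted p = 0.0235) and -0.29 in females (adjusted p = 0.645). Smad3, a mediator of TGF-β signals, rose by 0.79 in males (adjusted p = 0.00132) and Cebpb by 0.67 (adjusted p = 0.00447). Stat5a, named because it was the one factor called lower, gave -0.64 in males (adjusted p = 0.00682). In females Smad3 gave 0.44, Cebpb 0.15 and Stat5a -0.53, none called (adjusted p = 0.0584, 0.786 and 0.0865). Myc, an activator of Ccnd2, gave 0.89 and 1.29 without passing (adjusted p = 0.11 and 0.121).

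Among genes for the turnover of D cyclins and Cip/Kip inhibitors, 0 of 11 rose and 1 fell in males, and none was called in females. The gene was Usp2, a deubiquitinase that stabilises cyclin D1, at -0.90 in males and -0.84 in females (limma adjusted p = 0.00449 and 0.0322). The genes of 2 ubiquitin ligase subunits that act on cyclin D1, Fbxo4 and Fbxo31, gave 0.49 and 0.35 in males (adjusted p = 0.0693 and 0.11) and 0.32 and 0.0046 in females (adjusted p = 0.285 and 0.993).

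**Figure D4:**
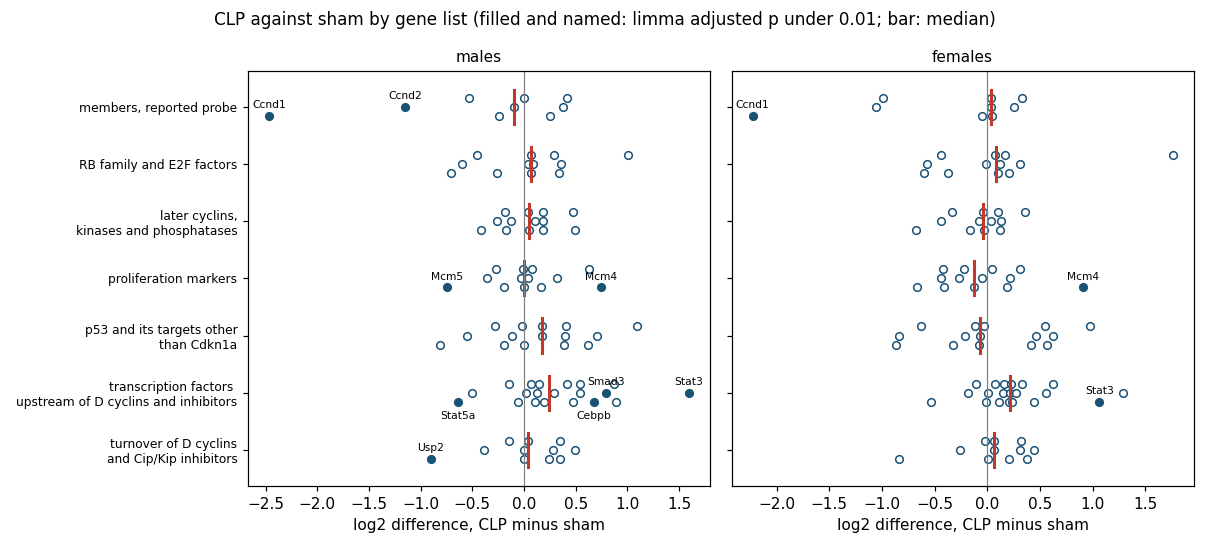
Log2 difference between CLP and sham (horizontal axis) for the 9 members and for the genes of 6 pathway lists, males left and females right, with 1 point per gene and a bar at the median of each list. Filled points passed at a limma adjusted p below 0.01 and carry their names. Ccnd1 lies farthest to the left of all genes drawn in both sexes.

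The genes whose group means followed Ccnd1 most closely were Kazald1, Osbpl6 and Nav3. Likeness was the root mean square difference over the 6 group means, after the mean of the 3 groups of a sex had been taken off, among 18159 named probes tested in both sexes. The values were 0.12, 0.13 and 0.14 on the log2 scale. For Ccnd1 itself the centred means were 1.45 in sham, -1.01 in CLP and -0.44 in CLP plus landiolol in males, and for Kazald1 they were 1.61, -1.18 and -0.43. For Cdkn1a, whose groups differed little, the nearest were Trmt61a, Bcl9l and Bcl2l2, at 0.03 each.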

How the data were processed

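Left ventricles of 32 rats were each hybridised to a 1-colour Agilent rat array (8 arrays per slide, 4 slides, 2 per sex). The authors deposited scanner files written by Agilent Feature Extraction 10.5, with a processed intensity, a mean intensity, a background intensity and quality marks per spot, and a table of log2 values that they had quantile-normalised within each sex and filtered. The columns of these deposited log2 values had medians of 9.62 to 9.64 for males and 9.70 to 9.71 for females. Their order followed the scanner intensities (Spearman's rho of 0.995 or more, rounded, on every array), and whether an offset was added before log2 remains unknown. Per the file headers, coordinates are those of build rn4.

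Control spots were left out and 13371 spot values marked as outliers were set to missing. No spot was saturated. Log2 processed intensities were averaged over the spots of a probe and quantile-normalised over the 16 arrays of a sex. A probe was tested when at least 80% of the arrays of a group were well above background. Quantile normalisation gives all arrays the same distribution, so a shift shared by all genes cannot be seen. Groups were compared with limma 3.58.1 in R 4.3.3 (lmFit and eBayes over the 3 groups of a sex) with Benjamini-Hochberg adjustment over all probes, at 1% against sham and 5% for landiolol against CLP and for the interaction of sex and treatment. The R package data.table (version 1.17.8) read the files, and figures were drawn with matplotlib (version 3.10.9). SAM, which the study used, was not run. The number of arrays limits the precision.

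Where a gene had several probes, the one brightest on average across all 32 arrays stood for it. All members were named, with the 3 genes of each pathway list that had the largest difference between CLP and sham among those called in a sex, and the 3 genes nearest to Ccnd1 and to Cdkn1a. Mki67, Tp53inp1, Stat5a, Myc, Fbxo4 and Fbxo31 were named after their values were seen. The members, the gene lists and the tests were chosen with earlier results of these data known. Array replicates were numbered in the order of the samples and were not used to pair arrays. The sample titles end in codes, different for every array, whose meaning the labels do not state, and no term was fitted for them. The alternatives were other scalings, background correction, filters, prior, array weights, slide and row terms, joint normalisation, the authors' table, the other FDR level, any probe of a gene, and leaving out each array.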

Additional observations from a re-analysis of the deposited data

Results flagged for a closer look

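Of 54 sets of arrays of the reported member probes (9 members in 6 groups), 2 held an array far from the others of its group by Dixon's criterion, and chance alone marks about 1 in 20. Both were in the female CLP group and in different arrays. For Ccnd1, CLP replicate 1 read 8.92, against 7.65 for the next highest array. For Cdk6, CLP replicate 5 read 8.24, against 7.10 for the next highest.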

How the results depend on the processing

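Among 2232 recomputed values for 72 member results, 19 lost and 12 gained a call, and no called value changed sign. Most of the 72 results had no call to lose. Most of the losses were those of Ccnd3 in CLP plus landiolol against sham in males, 13 of them in fits without 1 array. A change of sign occurred 90 times, among 23 results whose main value was at most 0.19 in size. Ccnd1 stayed called against sham in males and in females in CLP, while for CLP plus landiolol against sham in females a term for the row ended the call. For CLP against sham in males, 3 members were called with any probe of a gene, beside 2 in the report. For CLP against sham in females, 3 members were called at the other FDR level (5%), beside 1 in the report. In that female comparison, 2 were called with any probe of a gene, with array weights or with row as a term. For CLP plus landiolol against sham in females, 2 were called at the other FDR level and 0 with row as a term, beside 1. For CLP plus landiolol against sham in males, 2 were called with 75th percentile scaling, with no filter on dim probes or with only the compared groups fitted, and 4 with array weights or at the other FDR level, beside 3. Array weights called 1 member in landiolol against CLP in males (Cdkn1c), beside 0. Leaving out each array in turn gave 1 to 2 members for CLP against sham in males, 1 to 2 in females, 0 to 1 for landiolol against CLP in each sex, 2 to 3 for CLP plus landiolol against sham in males and 1 to 1 in females, and 0 to 0 for both interactions. Why the row term, which in females is nearly tied to the groups, moved the counts was not tested. Another scaling moved the median of all probes by less than 0.1 on the log2 scale. No paired analysis was possible because the labels give no replicate numbers, and the codes in the sample titles differ on every array. Signal limits Cdkn2b, which was near background.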
